A study of Mus musculus with 12 samples.

Results

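The genes described here are 10 components of transforming growth factor beta (TGF-beta) signalling: the ligand genes Tgfb1 and Tgfb3, the latency gene Lrrc32, the receptor genes Tgfbr1, Tgfbr2 and Tgfbr3, and the signalling and inhibitor genes Smad2, Smad3, Smad7 and Ski. They were taken by gene symbol from a table of 24062 genes. All 10 were present, and all 10 were among the 13509 genes with enough counts to be tested. The levels come from 12 mouse messenger RNA libraries of CD4+ T cells, in 6 groups of 2. Cells sorted as CD4+GFP+ are called Treg (regulatory T cells) and cells sorted as CD4+GFP- are called Tconv (conventional T cells). Each type was taken at 3 sites: tumours of C57BL/6 mice that carried them (TB, for tumour-bearing), spleens of TB mice and spleens of normal C57BL/6 mice. TB mice had received 500000 cells of TC-1, a transplantable mouse tumour line of lung epithelial origin, through the tail vein 3 weeks earlier. All cells had been enriched for CD4 by removing other cells before the sort. The labels do not name the gene that drives GFP, give no age, and leave unsaid whether each library stands for its own mouse, so p-values measure the spread between these libraries, which may be technical. No group held T cells of the tumour's organ from mice without tumour, so tumour and organ cannot be told apart in any difference from spleen.

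TGF-beta is secreted in a latent form, in which the active dimer is held by its own propeptide. On Treg cells the latent ligand is anchored to the surface by GARP, the product of Lrrc32, and is released by the integrin made of the products of Itgav and Itgb8. The free ligand binds the type II receptor TGFBR2, which recruits and phosphorylates the type I receptor TGFBR1, while the coreceptor betaglycan (TGFBR3) presents ligand to them. The activated type I receptor phosphorylates SMAD2 and SMAD3, which enter the nucleus with SMAD4. SMAD7 is a feedback inhibitor that the pathway itself induces, and SKI is a corepressor that binds the SMADs. In T cells the pathway restrains activation and takes part in the making of peripheral Treg and of tissue-resident cells.

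Total counts per library ran from 18624132 to 24111546. Levels are given as CPM, each gene's counts per total count of its library on the usual scale, after TMM scaling, given for library 1 and then library 2 of a group. Changes are log2 fold changes ± SE from 1 fit of all 12 libraries with edgeR's quasi-likelihood test, adjusted by Benjamini and Hochberg's method over the 13509 genes, and a gene was called at an adjusted p under 0.05. Foxp3, the factor that defines Treg, lay at 989 to 1247 CPM in the 6 Treg libraries and at 11.5 to 19.6 CPM in the 6 Tconv libraries. Transcripts of other cells were higher in tumour libraries. Summed over 8 fibroblast markers the level was 444 to 461 CPM in tumour Treg and 242 and 580.0 CPM in tumour Tconv, against at most 2.16 CPM in any spleen library. Summed over 9 macrophage markers it was 257 to 362 CPM in tumour Treg, 185 and 462.5 CPM in tumour Tconv, and at most 9.86 CPM in spleen. Summed over 10 immediate early genes, which tissue dissociation also induces, it was 6640 to 7081 CPM in tumour Treg, 10240 and 8593 CPM in tumour Tconv, and 921 to 2633 CPM in spleen.

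**Figure D1:**
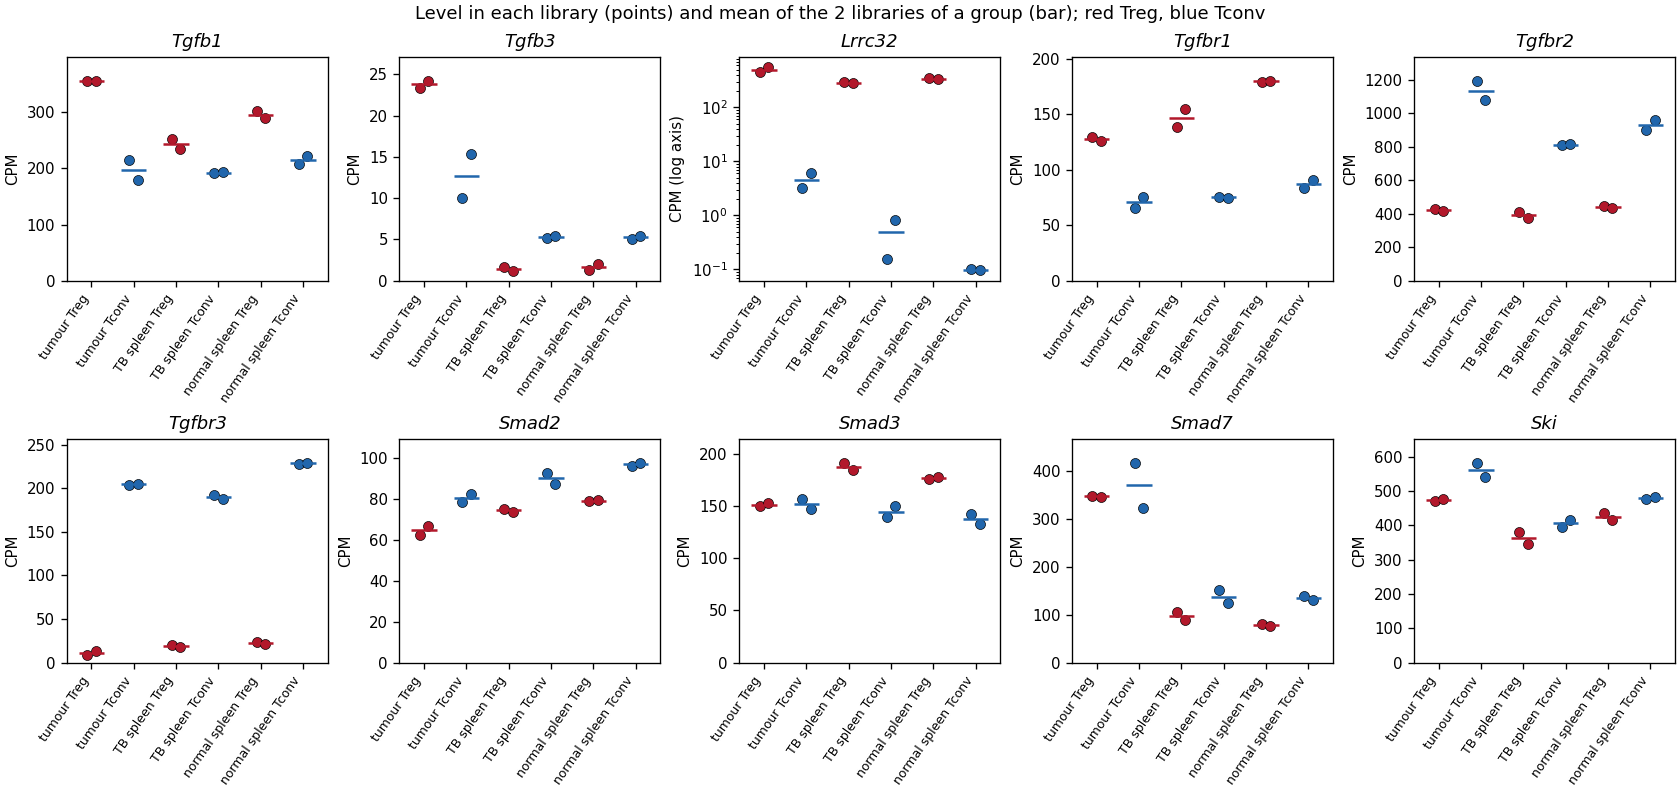
CPM of each of the 10 genes (vertical axis, from 0 except for Lrrc32, whose axis is logarithmic) in the 2 libraries of each group (points) with the group mean (bar), Treg in red and Tconv in blue. Lrrc32 and Tgfbr3 separate Treg from Tconv at every site, Smad7 separates tumour from spleen, and Tgfb3 is highest in tumour Treg at 23.4 and 24.2 CPM.

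The first set of comparisons asked how Treg differed from Tconv at each site. Lrrc32, Tgfb1 and Tgfbr1 were higher in Treg at all 3 sites, and Tgfbr2, Tgfbr3 and Smad2 were lower. Tgfb3 was lower in Treg than in Tconv in both spleens and higher in the tumour. Of the 10 genes, 4 were called higher and 4 lower in the tumour, where 53.9% of all tested genes were called (27.2% higher, 26.7% lower). In TB spleen 4 were higher and 5 lower (40.3% of all genes, 21.0% higher and 19.4% lower), and in normal spleen 4 were higher and 5 lower (40.6%, 21.8% and 18.7%). The median of the 10 changes was −0.05, −0.22 and −0.23 at the 3 sites, against 0.00302, 0 and 0 over all tested genes.

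Lrrc32 (chromosome 7, 98489283 to 98502181, mm10) separated the cell types most widely. It was counted at 442 and 555 CPM in tumour Treg, 294 and 281 CPM in TB spleen Treg, and 344 and 328 CPM in normal spleen Treg. In Tconv it was at 3.16 and 5.99 CPM in the tumour, 0.156 and 0.808 CPM in TB spleen, and 0.102 and 0.0954 CPM in normal spleen. No Tconv library came near a Treg library, and no 2 neighbouring groups in the order of the 6 means overlapped. The Tconv values rest on few reads, 56 and 132 in the tumour, 3 and 18 in TB spleen, and 2 and 2 in normal spleen. From summed counts the Treg level was 105-fold the Tconv level in the tumour (95% exact interval 91.3 to 122), 568-fold in TB spleen (372 to 918) and 3411-fold in normal spleen (1332 to 12520). These intervals cover counting error only. In the fit the difference was 6.73 ± 0.22 in the tumour (edgeR adjusted p = 2.58e-10), 9.14 ± 0.29 in TB spleen (4.04e-10) and 11.65 ± 0.36 in normal spleen (1.96e-10).

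The level of Lrrc32 in Tconv can be set beside that of Foxp3, the gene of the cells sorted away from them. Foxp3 in a Tconv library was 0.956% to 1.93% of the Treg mean at the same site. Lrrc32 was 0.0303% and 0.0284% of that mean in normal spleen and 0.0543% and 0.281% in TB spleen, below the Foxp3 share in each of these 4 libraries. In tumour Tconv it was 0.634% in library 1, below Foxp3 at 1.35%, and 1.20% in library 2, above Foxp3 at 0.956%. The other 2 genes of the Treg marker list did not follow Foxp3. Il2ra was at 42.5 and 65.9 CPM and Ikzf2 at 57.5 and 60.1 CPM in TB spleen Tconv, against 15.6 to 18.3 CPM and 26.5 to 34.7 CPM in normal spleen and tumour Tconv, and both were called higher in TB than in normal spleen Tconv. Summed over all 3 Treg markers the level was 113 and 143 CPM in TB spleen Tconv, 68.8 and 61.7 CPM in normal spleen Tconv and 66.4 and 59.9 CPM in tumour Tconv. GARP is also made by endothelial cells and platelets. The endothelial cadherin gene Cdh5 had 14 and 140 counts in tumour Tconv, 66 and 135 in tumour Treg and 1 to 16 in spleen. Summed over 7 endothelial markers the level was 254 to 257 CPM in tumour Tconv, of which Pecam1, which T cells also express, made 252 and 247 CPM, and 274 to 328.5 CPM in spleen Tconv. Summed over 7 megakaryocyte and platelet markers it was 219.7 to 240.0 CPM in tumour Tconv and 218 to 296 CPM in spleen Tconv, nearly all from Itgb3 (216 and 237 CPM in tumour Tconv), and the defining genes Pf4, Ppbp and Gp9 had 0 or 1 count in each tumour library. The part of these cells in the level of Lrrc32 in tumour Tconv was not tested, and in sorted bulk samples a few cells with much of a transcript and many cells with little cannot be told apart.

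**Figure D2:**
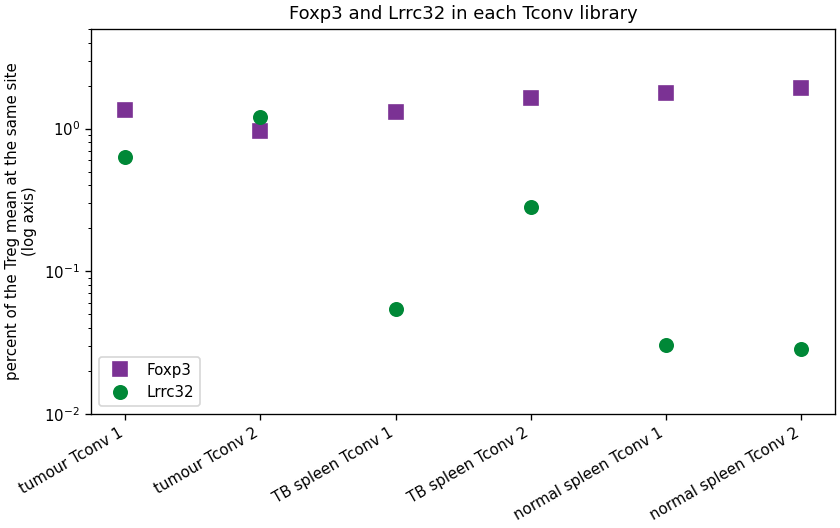
Level of Foxp3 (squares) and Lrrc32 (circles) in each of the 6 Tconv libraries as a percent of the Treg mean at the same site, on a logarithmic axis. Foxp3 stays between 0.956% and 1.93%, while Lrrc32 runs from 0.0284% in normal spleen to 1.20% in the tumour.

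Tgfb1 (chromosome 7, 25687002 to 25705077) encodes the main TGF-beta ligand of T cells. It lay at 355 and 356 CPM in tumour Treg, 252 and 235 CPM in TB spleen Treg, and 303 and 289.7 CPM in normal spleen Treg. In Tconv it was at 215 and 179 CPM, 191 and 193 CPM, and 208 and 221 CPM at the same sites. Each Treg library exceeded every Tconv library, and the 3 Tconv groups overlapped in the order of their means. The difference between Treg and Tconv was 0.85 ± 0.08 in the tumour (edgeR adjusted p = 2.30e-06), 0.34 ± 0.08 in TB spleen (0.00524) and 0.46 ± 0.08 in normal spleen (0.000600). The call in TB spleen was lost without TB spleen Treg library 1 (0.29, adjusted p = 0.0520).

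Tgfb3 (chromosome 12, 86056745 to 86079041) encodes another ligand of the same receptors. Per kilobase of exon its level in tumour Treg was 7.04 CPM, beside 70.6 for Tgfb1 and 106 for Lrrc32. It lay at 23.4 and 24.2 CPM in tumour Treg and 10.0 and 15.4 CPM in tumour Tconv. The spleens reversed that order, with 1.59 and 1.19 CPM in TB spleen Treg and 1.26 and 2.05 CPM in normal spleen Treg, against 5.11 and 5.43 CPM and 5.10 and 5.39 CPM in the matching Tconv. Treg and Tconv libraries did not overlap at any site. Tgfb3 was therefore higher in Treg in the tumour, by 0.90 ± 0.20 (edgeR adjusted p = 0.00231), and lower in TB spleen by 1.92 ± 0.27 (−1.92, adjusted p = 0.000103) and in normal spleen by 1.67 ± 0.27 (−1.67, adjusted p = 0.000268). Of its 3383 exonic bases 420 overlap gene models on the opposite strand, and the sources used here do not give the strand setting used in counting.

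The ratio of the ligand transcripts per length of their exons shifted with these levels. Tgfb1 exceeded Tgfb3 by 94.9 to 162 times in the 4 spleen Treg libraries, by 23.9 to 27.6 times in the 4 spleen Tconv libraries, by 9.87 and 10.2 times in tumour Treg and by 14.35 and 7.81 times in tumour Tconv. The spleen Treg libraries thus held the largest excess of Tgfb1 and the tumour libraries of both types the smallest.

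The receptor genes moved in opposite directions between the cell types, and the starts of Tgfbr1 and Tgfbr2 are shown because these subunits act as a pair. Each sequence is the 250 bases before the RefSeq start of the gene, 5′ to 3′ on its own strand (GRCm38.p6). Capitals mark matches, on either strand, to CCAAT or to CAGAC, the core of a SMAD binding site.
Tgfbr1, chr4:47352972-47353221, + strand: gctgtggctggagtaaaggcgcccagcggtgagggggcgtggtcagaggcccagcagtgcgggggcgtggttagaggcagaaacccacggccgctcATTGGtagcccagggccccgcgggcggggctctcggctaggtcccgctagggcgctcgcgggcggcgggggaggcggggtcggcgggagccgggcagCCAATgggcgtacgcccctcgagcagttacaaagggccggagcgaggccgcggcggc
Tgfbr2, chr9:116175364-116175613, − strand: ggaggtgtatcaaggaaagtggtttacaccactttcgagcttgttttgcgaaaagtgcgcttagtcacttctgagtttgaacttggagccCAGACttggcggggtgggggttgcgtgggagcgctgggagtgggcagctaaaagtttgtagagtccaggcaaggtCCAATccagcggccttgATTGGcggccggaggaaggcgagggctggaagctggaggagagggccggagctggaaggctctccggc
Each window held 2 CCAAT matches, a motif found in 33.8% of 32851 such windows over all genes. The Tgfbr2 window held 1 CAGAC match and the Tgfbr1 window 0, where 42.2% of windows held at least 1. The Tgfbr1 window held 2 matches to GGGCGG (in 32.7% of windows; not in capitals) and the Tgfbr2 window 0, with a GC content of 74.8% and 58.4%. Neither held TGANTCA (6.75% of windows), bound by AP-1, or TGTTTAC (3.17%), bound by forkhead factors. Such matches describe the sequence only. Of the 10 genes, 5 were matched in the promoter table (also Tgfb1, Smad3 and Ski).

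Tgfbr1 (chromosome 4, 47353222 to 47414931), the type I receptor gene, was higher in Treg at each site. It was counted at 129 and 125 CPM in tumour Treg, 139 and 155 CPM in TB spleen Treg, and 179 and 179.8 CPM in normal spleen Treg. Tconv had 65.7 and 75.3 CPM, 75.1 and 74.6 CPM, and 83.4 and 90.3 CPM. All Treg libraries lay above all Tconv libraries. The difference was 0.85 ± 0.08 in the tumour (edgeR adjusted p = 1.58e-06), 0.97 ± 0.08 in TB spleen (8.44e-07) and 1.05 ± 0.08 in normal spleen (3.71e-07), a fold of 1.80 to 2.07.

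Tgfbr2 (chromosome 9, 116084293 to 116175360), the ligand-binding type II receptor gene, ran the other way. It lay at 425 and 417 CPM in tumour Treg, 411 and 374 CPM in TB spleen Treg, and 449 and 433 CPM in normal spleen Treg. Tconv had 1192.5 and 1078.5 CPM, 811 and 814 CPM, and 901 and 959 CPM. The lowest Tconv library exceeded the highest Treg library. Treg was lower by 1.43 ± 0.07 in the tumour (−1.43, edgeR adjusted p = 8.52e-09), by 1.05 ± 0.07 in TB spleen (−1.05, 2.02e-07) and by 1.08 ± 0.07 in normal spleen (−1.08, 1.45e-07). Per length of their exons, Tgfbr2 transcripts exceeded those of Tgfbr1 by 1.92 to 2.66 times in the 6 Treg libraries and by 8.48 to 14.5 times in the 6 Tconv libraries.

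Tgfbr3 (chromosome 5, 107106570 to 107289629), which encodes betaglycan, had the widest difference of the receptor genes. Treg had 9.29 and 12.9 CPM in the tumour, 20.4 and 18.0 CPM in TB spleen, and 23.4 and 20.9 CPM in normal spleen. Tconv had 204 and 205 CPM, 193 and 188 CPM, and 228 and 229 CPM. The groups of the 2 cell types lay far apart, and among Treg the tumour libraries were lowest. The difference was −4.20 ± 0.12 in the tumour (edgeR adjusted p = 7.79e-11), −3.31 ± 0.11 in TB spleen (4.91e-10) and −3.37 ± 0.11 in normal spleen (3.25e-10), so the level in Tconv was 18.4-fold, 9.91-fold and 10.3-fold that in Treg. A gene model on the same strand shares 297 of its 6545 exonic bases.

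**Figure D3:**
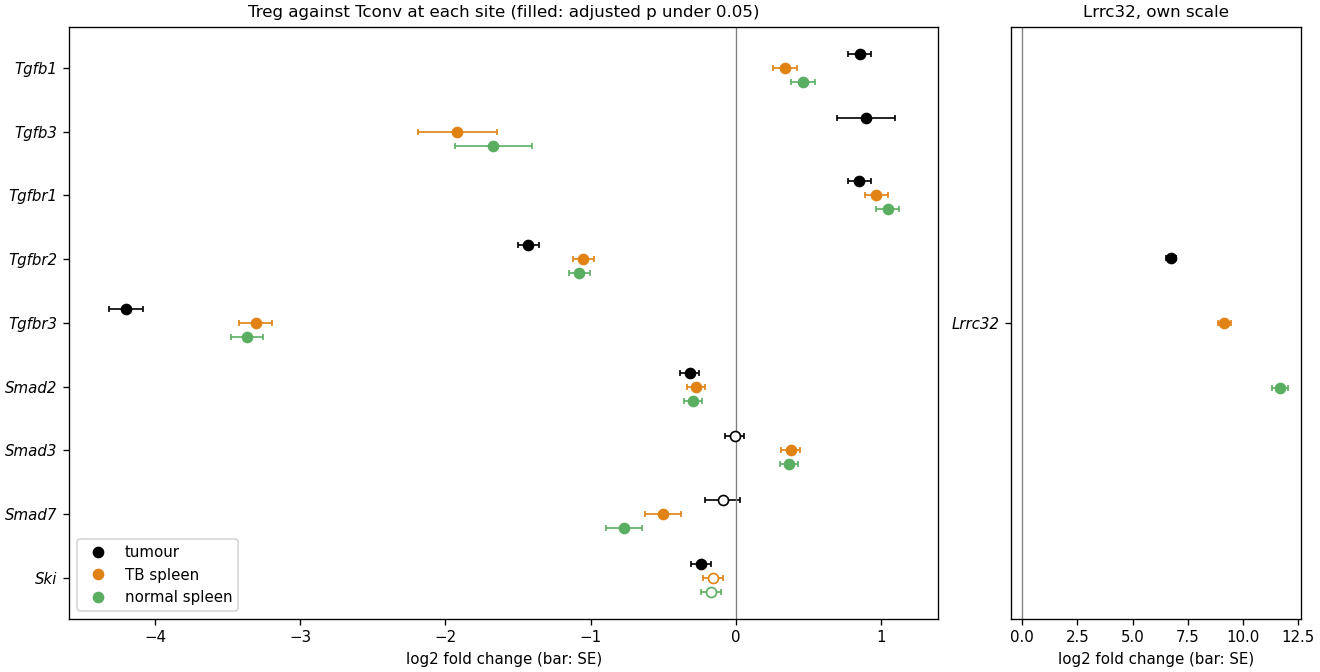
Log2 fold change of Treg against Tconv (horizontal axis, bar: SE) for each gene in the tumour, TB spleen and normal spleen, with filled points for an adjusted p under 0.05 and Lrrc32 on its own scale at the right. The 3 sites lie close for Tgfbr1 and Smad2, while Tgfb3 is at 0.90 in the tumour and at −1.92 and −1.67 in the spleens.

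The SMAD and inhibitor genes differed less between the cell types. Smad2 (chromosome 18, 76241580 to 76310963) lay at 62.3 to 79.2 CPM in Treg and at 78.4 to 97.4 CPM in Tconv, and Treg was lower than Tconv of the same site by 0.27 to 0.32 (−0.32 ± 0.06, −0.27 ± 0.06 and −0.29 ± 0.06 in tumour, TB and normal spleen; edgeR adjusted p = 0.00104, 0.00387 and 0.00252). Smad3 (chromosome 9, 63646767 to 63757994) was higher in spleen Treg, with 191 and 184 CPM in TB mice and 175 and 178 CPM in normal mice against 139 and 149 CPM and 142 and 132 CPM in Tconv. The difference was 0.38 ± 0.06 in TB spleen (edgeR adjusted p = 0.000464) and 0.37 ± 0.06 in normal spleen (0.000605). In the tumour the 2 cell types overlapped, at 149.9 and 153 CPM in Treg and 157 and 147 CPM in Tconv, with a difference of −0.01 ± 0.06 (adjusted p = 0.948). Both genes encode signal carriers of the same receptors, and per length of their exons Smad3 exceeded Smad2 by 3.53 to 4.03 times in Treg and by 2.15 to 3.17 times in Tconv.

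Smad7 (chromosome 18, 75367529 to 75395935), the feedback inhibitor gene, was lower in Treg than in Tconv in both spleens. TB spleen had 106 and 88.6 CPM in Treg and 151 and 124 CPM in Tconv, a difference of −0.50 ± 0.12 (edgeR adjusted p = 0.00637). The call was lost without TB spleen Treg library 2 (−0.38, adjusted p = 0.0768), and also when the first of the Tconv libraries there was left out (−0.35, 0.0825). In both cell types TB spleen library 1 had the higher Smad7 and the higher summed immediate early genes (2292 against 1180 CPM in Treg, 2633 against 996 CPM in Tconv), whose part in the level was not tested. Normal spleen had 81.2 and 77.2 CPM in Treg and 139 and 131 CPM in Tconv, a difference of −0.77 ± 0.13 (adjusted p = 0.000331). In the tumour Treg (348 and 346 CPM) lay between the 2 Tconv libraries (417 and 323 CPM), and the difference was −0.09 ± 0.12 (adjusted p = 0.576).

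Ski (chromosome 4, 155154075 to 155222592), the corepressor gene, was lower in Treg by 0.24 ± 0.07 in the tumour (−0.24, edgeR adjusted p = 0.00928), where Treg had 472 and 478 CPM and Tconv 582 and 542 CPM. This call was lost when only the tumour groups were fitted (−0.20, adjusted p = 0.153). The differences in TB and normal spleen were −0.16 ± 0.07 (0.0840) and −0.17 ± 0.07 (0.0628). The one in normal spleen was called under 5 of 20 alternatives, among them DESeq2 (−0.19, adjusted p = 0.0173) and a fit of only the groups compared (−0.17, 0.00823).

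The second set of comparisons asked how the genes differed between the tumour and the spleen of TB mice, within each cell type. Smad7 and Tgfb3 rose in both cell types, and so did Lrrc32 and Ski. Tgfb1 rose in Treg, Tgfbr2 rose in Tconv, and Tgfbr3 and Smad3 fell in Treg. In Treg 5 genes rose and 4 fell (2 fell without tumour Treg library 1), where 61.4% of all tested genes were called (32.8% higher, 28.7% lower). In Tconv edgeR called 5 higher and 0 lower (49.1% of all genes, 26.4% higher and 22.8% lower). At an unadjusted p under 0.05 edgeR had 1 gene lower in Tconv, Smad2, and DESeq2 called 0 lower. The median of the 10 changes was 0.24 in Treg and 0.29 in Tconv, against 0.02 and 0.000377 over all tested genes. When libraries were scaled by total count instead of TMM, the median of all genes moved by −0.16 in Treg and −0.11 in Tconv, and the share of higher genes among all calls fell from 53.3% to 39.9% and from 53.7% to 41.5%. The change differed between the cell types, by the test of that difference itself, for 6 of the 10 genes, where 24.7% of all genes passed. The change in Treg minus that in Tconv was positive for 2 and negative for 4 (11.7% and 13.1% of all genes). Among the 4, Lrrc32 rose less in Treg, and Tgfbr2 rose in Tconv and was not called in Treg. Tgfbr3 and Smad3 fell in Treg and were not called in Tconv.

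Smad7 went from 106 and 88.6 CPM in TB spleen Treg to 348 and 346 CPM in tumour Treg, by 1.84 ± 0.13 (edgeR adjusted p = 1.96e-07). In Tconv it went from 151 and 124 CPM to 417 and 323 CPM, by 1.43 ± 0.12 (2.28e-06). Every tumour library exceeded every spleen library of either type. The difference between the 2 changes, 0.41 ± 0.17, did not pass (adjusted p = 0.108), but passed without tumour Tconv library 1 (0.58, 0.0129). Summed immediate early genes were also higher in all tumour libraries than in all spleen libraries, and tumour Tconv library 1 had both the higher sum (10240 against 8593 CPM) and the higher Smad7 (417 against 323 CPM). Their part in the rise was not tested.

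Tgfb3 had the largest rise of the 10 genes in Treg, from 1.59 and 1.19 CPM to 23.4 and 24.2 CPM, or 4.09 ± 0.25 (17.0-fold, edgeR adjusted p = 8.89e-08). In Tconv it rose from 5.11 and 5.43 CPM to 10.0 and 15.4 CPM, or 1.27 ± 0.22 (2.42-fold, adjusted p = 0.000476). The change was larger in Treg by 2.82 ± 0.34 (adjusted p = 0.000127). Fibroblasts also make this ligand, and fibroblast markers were higher in tumour libraries. In tumour Tconv library 2 their summed level was 2.40-fold that in library 1 (580.0 against 242 CPM) and Tgfb3 was 1.53-fold. Tumour Treg had more Tgfb3 than tumour Tconv library 2 while its fibroblast sum was lower (461 and 444 CPM). The sum over 8 markers of lung and tumour epithelium ran the same way as Tgfb3 between the tumour groups. It was 163 and 112 CPM in tumour Treg and 88.6 and 101 CPM in tumour Tconv. Between the tumour Treg libraries it did not follow Tgfb3, at 23.4 and 24.2 CPM. In the spleens, where Tgfb3 was lower in Treg, the sum was also higher in Treg (25.85 to 28.4 CPM) than in Tconv (2.86 to 5.03 CPM). Of the 8 markers, 2 were called higher and 1 lower in Treg than in Tconv at each site. The part of these transcripts in the rise was not tested.

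Lrrc32 rose from 294 and 281 CPM to 442 and 555 CPM in Treg, by 0.79 ± 0.16 (1.73-fold, edgeR adjusted p = 0.000792). In Tconv it rose from 3 and 18 counts to 56 and 132, by 3.20 ± 0.45 (9.18-fold, adjusted p = 9.94e-05). Without TB spleen Tconv library 2, which held 18 of those 21 counts, the rise in Tconv was 4.85 (adjusted p = 0.000388). The change in Treg was smaller than that in Tconv by 2.41 ± 0.50 on the log2 scale (−2.41, adjusted p = 0.00462; −4.06 without TB spleen Tconv library 2). As given above, Lrrc32 in tumour Tconv lay at 0.634% and 1.20% of the Treg level. It was 1.90-fold as high in tumour Tconv library 2 as in library 1. The fibroblast sum was 2.40-fold and the macrophage sum 2.50-fold as high there, and their part in the level was not tested.

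Tgfb1 rose in Treg by 0.55 ± 0.08 (from 252 and 235 CPM to 355 and 356 CPM, edgeR adjusted p = 0.000104). In Tconv the tumour libraries (215 and 179 CPM) lay on either side of the spleen libraries (191 and 193 CPM), with a change of 0.03 ± 0.08 (adjusted p = 0.759). The 2 changes differed by 0.51 ± 0.12 (adjusted p = 0.00706). Tumour Treg thus had the highest mean of all 6 groups for Tgfb1, Tgfb3 and Lrrc32, with no overlap with the next group.

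The receptor genes did not change alike. Tgfbr2 rose in Tconv by 0.48 ± 0.07 (from 811 and 814 CPM to 1192.5 and 1078.5 CPM, edgeR adjusted p = 0.000145) and was at 0.10 ± 0.07 in Treg (0.242). The difference between the changes was −0.38 ± 0.10 (adjusted p = 0.0161; 0.0845 without TB spleen Treg library 1). Tgfbr3 fell in Treg by 0.79 ± 0.12 (from 20.4 and 18.0 CPM to 9.29 and 12.9 CPM; −0.79, adjusted p = 0.000163) and was at 0.11 ± 0.10 in Tconv (0.392), a difference of −0.89 ± 0.16 (adjusted p = 0.00169). Tgfbr1 was at −0.20 ± 0.08 in Treg (adjusted p = 0.0342) and −0.08 ± 0.08 in Tconv (0.402). The Tgfbr1 call in Treg was lost under 7 of 20 alternatives, among them leaving out tumour Treg library 1 or 2 or TB spleen Treg library 2, where it was −0.12 (adjusted p = 0.272), and total count scaling gave −0.36.

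**Figure D4:**
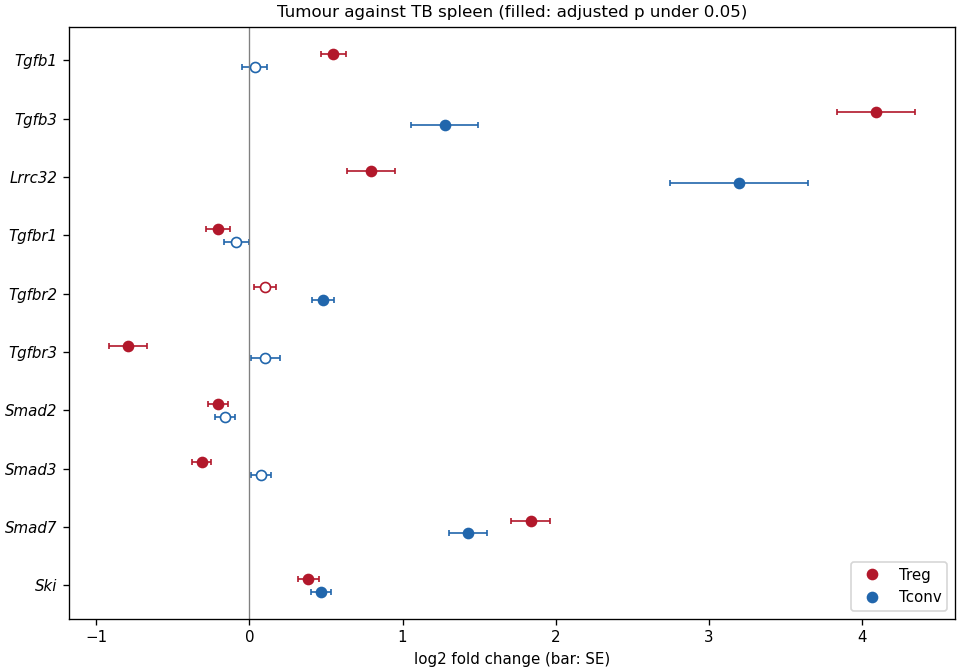
Log2 fold change of tumour against TB spleen (horizontal axis, bar: SE) for each gene in Treg (red) and Tconv (blue), filled where the adjusted p was under 0.05. Tgfb3 rose more in Treg (4.09 against 1.27), Lrrc32 more in Tconv (3.20 against 0.79), and Smad7 and Ski rose in both.

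Smad3 fell in tumour Treg by 0.31 ± 0.06 (from 191 and 184 CPM to 149.9 and 153 CPM; −0.31, edgeR adjusted p = 0.00117; −0.47 with total count scaling). It was at 0.07 ± 0.06 in Tconv (adjusted p = 0.370), and the changes differed by −0.39 ± 0.09 (0.00937). Smad2 was at −0.20 ± 0.06 in Treg (adjusted p = 0.0147) and −0.16 ± 0.06 in Tconv (0.0530). The Smad2 call in Treg was lost under 5 of 20 alternatives, DESeq2 among them (−0.16, adjusted p = 0.0701), and also without tumour Treg library 1 or TB spleen Treg library 1, while total count scaling gave −0.36. Ski rose by 0.38 ± 0.07 in Treg (381 and 347 to 472 and 478 CPM, adjusted p = 0.000387; 0.22 with total count scaling) and by 0.47 ± 0.07 in Tconv (396 and 417 to 582 and 542 CPM, adjusted p = 0.000131).

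The third set compared spleens of TB and normal mice. In Treg 3 genes were lower and 0 higher (15.3% of all tested genes called, 6.80% higher and 8.50% lower), and in Tconv 1 was lower and 0 higher (17.2%, 9.74% and 7.49%). Tgfb1 was lower in TB spleen Treg by 0.28 ± 0.08 (−0.28, edgeR adjusted p = 0.0354), Tgfbr1 by 0.29 ± 0.08 (−0.29, 0.0230) and Ski by 0.23 ± 0.07 (−0.23, 0.0431). In Tconv Ski was lower by 0.24 ± 0.07 (−0.24, adjusted p = 0.0319). None of these 4 calls held under total count scaling, nor without TB spleen library 1 of the same cell type, which gave adjusted p of 0.0820 for Tgfb1, 0.184 for Tgfbr1, 0.0601 for Ski in Treg and 0.175 for Ski in Tconv. That scaling moved the share of higher genes among all calls from 44.4% to 66.5% in Treg and from 56.5% to 78.5% in Tconv. While edgeR called 0 higher, 1 gene had an unadjusted p under 0.05 in Treg, Smad7 (0.30 ± 0.13, adjusted p = 0.135), where DESeq2 called 0, and 0 did in Tconv, where DESeq2 called Lrrc32 (2.35, adjusted p = 0.0214; edgeR 2.29 ± 1.08, adjusted p = 0.170) on 3 and 18 counts against 2 and 2. The change in Treg differed from that in Tconv for 0 of the 10 genes by edgeR (0.851% of all genes, 0.222% higher and 0.629% lower) and by DESeq2, with 1 gene, Lrrc32, at an unadjusted p under 0.05 in edgeR.

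For the 4 genes whose group means spanned at least 4-fold, the genes most alike in pattern were taken by Pearson's r of log2 CPM over the 12 libraries. These libraries fall into groups by cell type and site, so r is a description only. Lrrc32 was most like Myo1e (r = 0.990), Ralgds (0.988) and the chemokine receptor gene Ccr4 (0.986), which had means of 127, 106 and 300.1 CPM in tumour Treg and 4.295, 22.3 and 23.9 CPM in normal spleen Tconv. Tgfb3 was most like Mfge8 (0.980), Fam213a (0.965) and Galnt1 (0.964), with Mfge8 at 58.0 CPM in tumour Treg, 48.9 CPM in tumour Tconv and 20.4 to 33.9 CPM in the spleens. Tgfbr3 was most like Hs3st3b1 (0.997), Mctp2 (0.995) and Nlk (0.995), with Hs3st3b1 at 63.4 to 92.7 CPM in Tconv and 2.29 to 4.61 CPM in Treg. Smad7 was most like Tollip (0.986), Maml1 (0.986) and Rnf138 (0.983), with Rnf138 at 115 and 119 CPM in the tumour groups and 54.9 to 73.8 CPM in the spleens.

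The rest of the pathway was described with a list of 68 genes in 5 roles, of which 58 are not among the 10 genes above and 51 of those had enough counts (7 did not: Tgfb2, Itgb6, Acvr2b, Bmpr1b, Smad9, Foxh1 and Smad6). Of these 51, 29 rose and 14 fell in tumour Treg (32.8% and 28.7% of all tested genes) and 31 rose and 5 fell in tumour Tconv (26.4% and 22.8%), with a median of 0.83 and 1.20 against 0.02 and 0.000377 over all tested genes. Between Treg and Tconv 14 were higher and 18 lower in the tumour (27.2% and 26.7% of all tested genes), 13 and 14 in TB spleen (21.0% and 19.4%), and 17 and 14 in normal spleen (21.8% and 18.7%). Between TB and normal spleen 6 were higher and 2 lower in Treg (6.80% and 8.50%), and 2 and 3 in Tconv (9.74% and 7.49%).

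Among ligand, latency and activation genes, Tgfb1, Tgfb3 and Lrrc32 included, 13 of 15 rose and 0 fell in tumour Treg (32.8% and 28.7% of all tested genes) and 12 rose and 2 fell in tumour Tconv (26.4% and 22.8%). Itgav, the alpha subunit of the integrin that frees TGF-beta from GARP, rose in tumour Treg by 1.99 ± 0.10 (185 and 199 CPM to 765 and 762 CPM, edgeR adjusted p = 1.18e-08) and in Tconv by 0.31 ± 0.10 (0.0221), a difference of 1.69 ± 0.14 (8.04e-06). Its partner Itgb8 was at 56.7 and 47.0 CPM in tumour Treg and 46.8 and 49.2 CPM in TB spleen Treg (0.11 ± 0.18, adjusted p = 0.609), and it was higher in Treg than in Tconv by 4.55 ± 0.25 in the tumour, 2.84 ± 0.21 in TB spleen and 4.67 ± 0.27 in normal spleen. In Tconv Itgb8 fell in the tumour by 1.60 ± 0.30 (5.89 and 7.41 CPM to 2.93 and 1.59 CPM; −1.60, adjusted p = 0.000766), and it was higher in TB than in normal spleen by 2.22 ± 0.32 (adjusted p = 0.000847). The Treg marker sum given above moved with Itgb8 over these Tconv groups. It was 113 and 143 CPM in TB spleen, 68.8 and 61.7 CPM in normal spleen and 66.4 and 59.9 CPM in the tumour. The higher sum in TB spleen came from Il2ra and Ikzf2. Foxp3 did not follow it, with Tconv means of 15.1 CPM in TB spleen, 18.9 CPM in normal spleen and 13.8 CPM in the tumour. The part of Treg transcripts in the Itgb8 result was not tested. Nrros, which encodes a relative of GARP that anchors latent TGF-beta on myeloid cells, fell in tumour Tconv by 1.44 ± 0.10 (−1.44, adjusted p = 4.03e-07) and was at 0.13 ± 0.10 in Treg (0.254). Furin, the protease that cleaves the TGF-beta precursor, rose by 1.42 ± 0.09 in Treg and 1.33 ± 0.09 in Tconv (adjusted p = 1.13e-07 and 3.07e-07).

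Several genes of the same list are typical of stromal and myeloid cells. Thbs1, an extracellular activator of latent TGF-beta, rose by 7.22 ± 0.44 in Treg and by 9.44 ± 0.54 in Tconv (360.3 and 414 CPM in tumour Treg, 229 and 549 CPM in tumour Tconv). Its tumour means were alike, at 387 and 389 CPM, and its TB spleen means were 2.59 CPM in Treg and 0.563 CPM in Tconv. The latent TGF-beta binding protein genes Ltbp1 to Ltbp4, chosen after their values were seen, rose by 3.30 to 6.00 in Treg and by 6.375 to 9.33 in Tconv. Their tumour means were alike, at 8.73 to 35.0 CPM in Treg and 7.88 to 34.4 CPM in Tconv. In TB spleen they were 0.229 to 1.91 CPM in Treg and only 0.0449 to 0.216 CPM in Tconv. For Thbs1 and for Ltbp1 to Ltbp4, the size of the rise in Tconv thus rests on spleen levels near 0. In tumour Tconv library 2 the level of Thbs1 was 2.40-fold that in library 1 and those of Ltbp1 to Ltbp4 were 2.28-fold to 2.94-fold, beside 2.40-fold for the fibroblast sum and 2.50-fold for the macrophage sum. Of the 10 genes, Lrrc32 and Tgfb3 were also higher in library 2, at 1.90-fold and 1.53-fold. The levels of Tgfb1, Tgfbr1, Tgfbr2, Tgfbr3, Smad2, Smad3, Smad7 and Ski in library 2 were 0.775-fold to 1.15-fold those in library 1. The part of other cells in these rises was not tested.

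Among receptor genes, 4 of 12 rose and 6 fell in tumour Treg (32.8% and 28.7% of all tested genes), and 6 rose and 2 fell in tumour Tconv (26.4% and 22.8%). Bambi, which encodes a decoy receptor without a kinase, rose by 3.57 ± 0.30 in Treg and 4.79 ± 0.32 in Tconv (2.70 and 1.61 CPM to 25.4 and 26.2 CPM, and 1.88 and 1.26 CPM to 43.7 and 42.5 CPM). Acvrl1, a type I receptor gene of the family, was lower in Treg than in Tconv by 2.95 ± 0.12 in the tumour (−2.95), and by 3.15 ± 0.11 and 2.76 ± 0.10 in TB and normal spleen (−3.15 and −2.76). Among SMADs and adaptors, 3 of 15 rose and 10 fell in Treg and 4 rose and 1 fell in Tconv, beside the same shares of all genes. The genes that rose in both include Dab2, which had 0 counts in TB spleen. It was 3.23-fold as high in tumour Tconv library 2 as in library 1, beside 2.40-fold for the fibroblast sum, whose part was not tested. Of the other SMAD genes in Treg, Smad1 fell by 0.75 ± 0.09 and Smad5 by 0.60 ± 0.09 (−0.75 and −0.60, adjusted p = 2.41e-05 and 9.77e-05). Smad4, the shared partner of SMAD2 and SMAD3, was lower in Treg than in Tconv of the tumour by 0.77 ± 0.07 (−0.77, adjusted p = 7.12e-07).

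Among inhibitor genes, Smad7 and Ski included, 9 of 14 rose and 2 fell in Treg (32.8% and 28.7% of all tested genes) and 9 rose and 0 fell in Tconv (26.4% and 22.8%). Skil, which encodes the SKI-like corepressor SnoN, rose by 2.03 ± 0.08 in Treg and 2.20 ± 0.08 in Tconv (205 and 203 CPM to 832 and 835 CPM, and 165 and 143 CPM to 733 and 677 CPM). Tgif1, another corepressor gene, rose by 2.17 ± 0.09 in Treg and 2.95 ± 0.10 in Tconv. Nedd4l, a ubiquitin ligase gene, was lower in Treg than in Tconv of the tumour by 1.80 ± 0.09 (−1.80). Of 10 genes that TGF-beta is known to induce, 9 rose and 0 fell in Treg (32.8% and 28.7% of all tested genes) and 10 rose in Tconv (26.4%), with Smad7, Skil, Pmepa1, Ldlrad4 and Bambi counted in other roles too. Itgae, the integrin gene of tissue-resident T cells, rose by 2.48 ± 0.14 in Treg (97.5 and 129.5 CPM to 666 and 600.1 CPM) and by 3.72 ± 0.28 in Tconv (0.521 and 1.302 CPM to 13.7 and 11.3 CPM). Pmepa1, which encodes a membrane protein that holds back SMAD activation, was higher in TB than in normal spleen in each cell type, by 0.87 ± 0.10 in Treg and 0.83 ± 0.11 in Tconv (edgeR adjusted p = 0.000164 and 0.000373). Cdkn1a, which encodes a cell-cycle inhibitor, rose by 5.59 ± 0.21 in Treg and 7.04 ± 0.27 in Tconv (means of 2.43 to 118 CPM and 0.653 to 86.4 CPM). Tgfbi and Cdkn2b of this list were 2.70-fold and 2.01-fold as high in tumour Tconv library 2 as in library 1, beside 2.40-fold for the fibroblast sum, whose part was not tested.

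**Figure D5:**
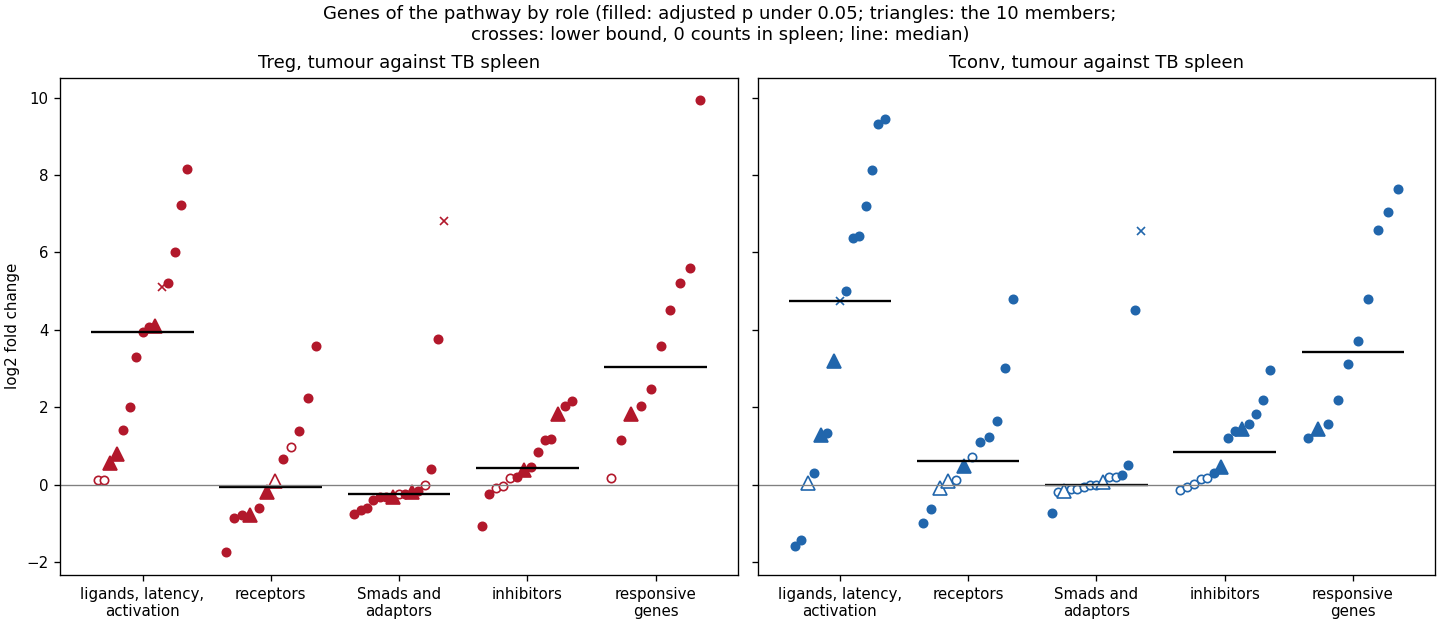
Log2 fold change of tumour against TB spleen (vertical axis) for the tested genes of the 5 role lists in Treg and Tconv, filled where the adjusted p was under 0.05, with triangles for the 10 genes and a line at each list's median. Crosses are lower bounds for Inhbb and Dab2, which had 0 counts in TB spleen, with the spleen group set at 3 counts.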

How the data were processed

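Deposited were raw counts of reads for each gene in each library. STAR, featureCounts and mm10 are named, without versions, in the submitters' processing notes, and the kit was TruSeq Stranded mRNA, per the labels' protocols. The counts were fitted with edgeR 4.0.16 (R 4.3.3) after filterByExpr and TMM scaling (factors 0.942 to 1.07), as 1 quasi-likelihood model of 6 group means (6 residual degrees of freedom, biological coefficient of variation 0.0863). The 7 comparisons and 2 interactions used F tests with Benjamini-Hochberg adjustment, and the SE is the log2 change over the square root of F. The procedure was tried on counts simulated from the spread fitted to these libraries, with changes set in tumour Treg only. Such counts cannot show the effect of technical replicates or of transcripts from other cells. Averaged over genes, the chi-square between the 2 libraries of a group was 3.54 to 17.0, where sampling alone gives 1. Its expected counts came from unscaled totals, and this mean need not hold for a typical gene. The genes, role lists and marker lists were chosen with earlier results of these data known. Named for each role list and comparison were up to 4 called genes with the largest change, if their mean log2 CPM reached 1. Ltbp1 to Ltbp4, Tgfbi and Cdkn2b were added after their values were seen. For genes spanning at least 4-fold between group means, the 3 most alike genes were named, if their mean log2 CPM reached 3. Positions and exon lengths are from GENCODE (69 of 69 symbols matched) and promoter windows from RefSeq. Alternatives were DESeq2 1.42.0, its size factors, total count scaling, other filters, replicate blocks, fits of only the groups compared, and each library left out. Those on pathway genes and pathway counts were chosen after seeing the data. Plots were made with matplotlib 3.10.9.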

Additional observations from a re-analysis of the deposited data

Results flagged for a closer look

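In 6 of the 10 genes the change between tumour and TB spleen differed between Treg and Tconv by the test of the difference itself (edgeR). Of all tested genes 24.7% passed that test (11.7% higher and 13.1% lower in Treg minus Tconv). The change in Treg exceeded that in Tconv by 2.82 for Tgfb3, which rose in both cell types, and by 0.51 for Tgfb1, called in Treg. It was below that in Tconv for Lrrc32 (−2.41), which rose in both from very different levels, and for Tgfbr3 (−0.89), Smad3 (−0.39) and Tgfbr2 (−0.38).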

How the results depend on the processing

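Of 1799 values of the 10 genes under 20 alternatives, 1695 kept direction and call, 49 lost the call, 24 gained it and 31 changed sign, all of the last in results that were not called. Of 2420 values for 121 results on named pathway genes, 2337 kept both, 83 lost the call and 0 changed sign. Unless another cause is named, the cause was not tested; leaving out a library also leaves fewer samples.

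With total count scaling 4 small changes between tumour and TB spleen turned negative: Tgfbr2 in Treg (−0.060), and Tgfb1 (−0.076), Tgfbr3 (−0.0034) and Smad3 (−0.035) in Tconv. That scaling gave 1 of the 10 genes lower in tumour Tconv in place of 0, and 0 lower in TB against normal spleen in Treg (3) and Tconv (1), with 645 of all genes lower in Treg (1148) and 482 in Tconv (1012). Among pathway genes it gave 4 inhibitors lower in tumour Treg (2), and in tumour Tconv 9 lower outside the 10 genes (5), 5 SMADs and adaptors lower (1) and 1 inhibitor lower (0). In TB against normal Tconv it gave 4 higher (2) and 1 lower (3). DESeq2's size factors in edgeR left 1 of the 10 genes lower in TB against normal spleen Treg. Without a filter Tgfb3 in TB against normal spleen Tconv was −0.00012, 2 of the 10 genes were lower there (1) and 4 pathway genes higher (2), and the interaction of TB and cell type in spleen had 47 genes higher (30) and 137 lower (85). DESeq2 gave 62 and 146 there, 2 of the 10 genes lower in tumour Treg (4), 1 higher and 3 lower in TB against normal spleen Tconv (0 and 1), and 6 pathway genes higher there (2).

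Fits of only the groups compared gave 2 of the 10 genes lower in tumour Treg (4), 1 higher in TB against normal spleen Treg (0) and 3 lower in Tconv (1), and Smad3 in Treg against Tconv of the tumour at 0.037. Over all genes they gave 1763 lower in tumour Tconv (3077), 1756 higher and 1914 lower in TB against normal spleen Treg (918 and 1148), 945 higher in the interaction of site and cell type (1574), and 77 and 243 in that of TB and cell type. Of pathway genes 5 were lower in TB against normal spleen Treg (2), 5 higher in Tconv (2), and 1 higher in the interaction of TB and cell type (0).

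Libraries with the same title number deviated together in some pairs of groups, such as Treg and Tconv of TB spleen (r = 0.264) and of normal spleen (0.182). Within TB mice r ran down to −0.149, for tumour Treg and TB spleen Tconv. Groups of TB and of normal mice cannot share a mouse, so r between them does not bear on pairing. These values do not settle whether the numbers pair the samples, and the main fit took none as paired. A replicate block by title number changed Smad7 in TB against normal spleen Treg, which made 1 of the 10 genes higher (0; 0.29, adjusted p = 0.0458), and the interaction of site and cell type for Smad7 (0.42, adjusted p = 0.0269). The description numbers differ from the title numbers in normal mice. A replicate block by description number left 2 of the 10 genes lower in tumour Treg (4), and 0 lower in TB against normal spleen in both cell types, and Tgfb1 (0.39, adjusted p = 0.0551) and Smad2 (−0.30, 0.103) were no longer called for Treg against Tconv in normal spleen, with Smad3 at −0.050 in the interaction of TB and cell type. Over all genes this block gave 1761 higher and 1134 lower for Treg against Tconv in normal spleen (2950 and 2528), 315 and 256 for TB against normal spleen Treg, 619 and 210 for Tconv (1316 and 1012), and 13 and 29 for the interaction of TB and cell type. Of pathway genes it gave 10 higher and 9 lower for Treg against Tconv in normal spleen (17 and 14), 1 lower in TB against normal spleen Treg (2), 0 lower in Tconv (3) and 0 lower in that interaction (1).

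Leaving out each library in turn gave 2 to 4 of the 10 genes lower in tumour Treg (2 without tumour Treg library 1), 0 to 1 lower in tumour Tconv, 0 to 1 higher and 0 to 3 lower in TB against normal spleen Treg, and 0 to 2 lower in Tconv. Over all genes it gave 271 to 1337 higher and 241 to 1450 lower in TB against normal spleen Treg, 511 to 1582 and 240 to 1288 in Tconv, 1003 to 1781 and 1158 to 1979 in the interaction of site and cell type, and 14 to 50 and 28 to 171 in that of TB and cell type. The lowest counts came without normal spleen Treg library 2 (TB against normal Treg), normal spleen Tconv library 2 (Tconv and the interaction of TB and cell type) and TB spleen Treg library 1 (interaction of site and cell type). Uncalled changes spanned 0: in tumour against TB spleen Tconv, Tgfb1 (−0.091 to 0.15) and Tgfbr1 (−0.20 to 0.020), and in Treg against Tconv of the tumour, Smad3 (−0.063 to 0.011) and Smad7 (−0.27 to 0.075). In TB against normal spleen they were Tgfb3 in Treg (−0.56 to 0.15) and in Tconv (−0.039 to 0.050) and Smad7 in Tconv (−0.13 to 0.16). In the interaction of site and cell type Smad2 ran from −0.099 to 0.0077, and in that of TB and cell type Tgfb3 from −0.56 to 0.14, Tgfbr2 from −0.040 to 0.094, Tgfbr3 from −0.032 to 0.14, Smad2 from −0.027 to 0.061, Smad3 from −0.040 to 0.064 and Ski from −0.056 to 0.077. Of pathway genes 1 to 2 inhibitors were lower in tumour Treg, and in tumour Tconv 0 to 1 inhibitors and 1 to 2 SMADs and adaptors were lower and 2 to 4 SMADs and adaptors higher (2 without tumour Tconv library 2). In TB against normal spleen 2 to 7 were higher and 1 to 3 lower in Treg (2 higher without normal spleen Treg library 2), and 2 to 4 higher and 0 to 3 lower in Tconv (0 lower without TB spleen Tconv library 2). For Treg against Tconv in normal spleen 10 to 17 were higher (10 without normal spleen Treg library 1), and in the interactions 10 to 21 (10 without TB spleen Tconv library 2) and 0 to 1 were lower. Lrrc32 in spleen Tconv rests on 2 to 18 counts a library, and the TB spleen libraries, at 3 and 18, differ at similar depth.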
